A study of Mus musculus with 34 samples.

Results

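Acetylation of histone H3 at lysine 27 (H3K27ac) was set against elongating RNA polymerase II (Pol2S2P, the form whose tail carries phosphate on serine 2) in 1000 C2C12 cells that had been stained for both targets together. The comparison holds all libraries of that staining at 1000 cells, 3 read out for H3K27ac and 3 for Pol2S2P, which are 6 of the 34 samples of the series. C2C12 is an immortal line of mouse myoblasts, the proliferating precursors of muscle fibres. All 6 libraries share the line, the number of cells and the dual staining, and the labels name no treatment, time or genotype. H3K27ac was detected with the mouse monoclonal antibody CMA309 and Pol2S2P with the mouse monoclonal antibody CMA602. In the assay, multi-target chromatin integration labelling (mtChIL-seq), antibody-bound probes are inserted by the transposase Tn5 into nearby DNA, and RNA transcribed from the insertions is sequenced. Also used were 3 libraries of each target from the same dual staining of 100 cells, and 2 Pol2S2P libraries from 1000 cells stained for Pol2S2P alone.

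H3K27ac marks nucleosomes at active enhancers and gene starts, where the acetyltransferases p300 and CBP place it. Polymerase II begins transcription without serine 2 phosphorylation and gains it as kinases such as CDK9 and CDK12 act on it along the gene. The phosphorylated form is known for its enrichment in gene bodies and towards their 3′ ends, and polymerase travels on past the cleavage site before it leaves the template.

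The H3K27ac libraries held 2906302 to 3139311 counts and the Pol2S2P libraries 3159793 to 3645778. Over 253989 windows of 10 kb, log2(CPM + 1) values, CPM being counts scaled to a common library total, correlated at 0.843 between the H3K27ac libraries and at 0.853 to 0.857 between the Pol2S2P libraries. Across targets the correlation was 0.803 to 0.810 for libraries of the same replicate number and 0.786 to 0.792 for the others. These are descriptions over windows that share libraries and depth. At gene starts, counts of 5 myoblast marker genes summed to 3.69 to 4.98 times the genome mean in the H3K27ac libraries and 2.499 to 2.85 times in the Pol2S2P libraries. Myf5, an early myogenic transcription factor, stood at 8.98 times the mean in H3K27ac, whereas Pax7, a marker of muscle stem cells, stood at 0.151. Counts at the starts of 3 fibroblast and matrix markers summed to 9.501 to 12.9 times the mean in H3K27ac. Of these, Col1a2 stood at 13.5 and Col3a1 at 18.1, but Pdgfra at 1.58. Summed in the same way, markers of differentiated muscle reached 0.503 to 1.05 times the mean in H3K27ac, and of neurons and glia 0.174 to 0.362. Markers of pluripotent cells reached 0.218 to 0.419, of blood 0.872 to 1.36, of epithelium 1.45 to 1.54 and of liver 1.59 to 3.04. The labels do not tie the replicates to different cultures, and p-values therefore reflect only how far these samples differed from each other, a spread that may be technical.

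Pol2S2P was the more concentrated of the targets inside genes and past their 3′ ends, and H3K27ac outside them. Gene interiors, meaning bins that lie more than 2 kb from either end in genes of at least 5 kb, held 45.7%, 45.6% and 45.6% of the counts of the 3 H3K27ac libraries and 50.3%, 50.9% and 50.7% of the Pol2S2P libraries. The groups did not overlap, and both stood above the 36.2% of bins that are interiors. Windows from 0 to 5 kb past the 3′ end, 2.04% of bins, held 2.41% ± 0.0114 of H3K27ac counts against 3.17% ± 0.0363 of Pol2S2P counts (SD, n = 3 each). Distal bins, centred over 2 kb from every protein-coding gene, held 45.0% ± 0.0780 against 38.9% ± 0.446 (SD, n = 3 each), below their 58.4% of bins for both targets. Gene starts, the bins within 1 kb of the 5′ end, held 2.69% ± 0.0684 against 2.56% ± 0.0329 (SD, n = 3 each), with 1.24% of bins. Each of the 4 shares gave an exact two-sided permutation p of 0.1, the smallest that 3 against 3 can give. Paired by number, the libraries gave p = 0.25 by the exact sign-flip test, the smallest that 3 pairs can give. With wider start windows of 2.5 kb the shares at starts overlapped (6.08% ± 0.112 against 5.96% ± 0.0738, SD, n = 3 each; exact permutation p = 0.3). Pol2S2P stained alone held 5.31% and 5.16% of its counts at starts, above H3K27ac in the dual staining.

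The profile along genes showed the same division at finer resolution. Around 3136 genes of at least 20 kb with no other gene within 10 kb, H3K27ac stood at 1.60 ± 0.0295 times the genome mean at 1 to 2 kb before the start and at 2.16 ± 0.0559 at 1 to 2 kb after it (SD, n = 3). Pol2S2P reached 1.75 ± 0.0318 in the same bin and dipped to 1.48 ± 0.0265 in the first kb of the gene (SD, n = 3), where H3K27ac stood at 1.94 ± 0.0968. At 9 to 10 kb inside the gene the order had turned, with 1.40 ± 0.0161 for H3K27ac and 1.496 ± 0.0251 for Pol2S2P. In the first kb past the 3′ end Pol2S2P stood at 1.62 ± 0.0430, against 1.202 ± 0.0292 for H3K27ac (SD, n = 3 each). It declined to 1.23 ± 0.0181 at 9 to 10 kb past the end, where H3K27ac stood at 1.13 ± 0.00787. Pol2S2P stained alone showed no such dip at the start, with 3.302 and 3.439 times the mean in the first kb of the gene in its 2 libraries.

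**Figure D1:**
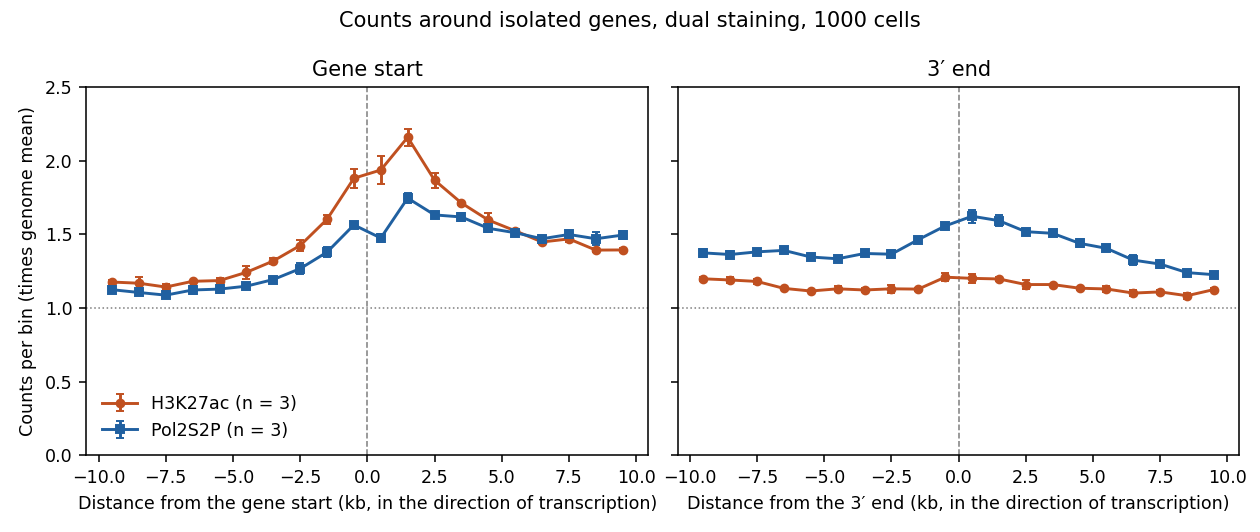
Mean count per 1 kb bin, in multiples of the genome mean, against the distance in kb from the gene start (left) and the 3′ end (right) of 3136 isolated genes in 1000 dual-stained cells. Points are means of 3 libraries and bars are SD. H3K27ac peaked at 2.16 just inside the start, and Pol2S2P exceeded it on both sides of the 3′ end.

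At gene starts H3K27ac was higher than Pol2S2P at most tested genes of the matrix, the actin cytoskeleton and the immediate early response, while most starts with more Pol2S2P lay within 10 kb past the 3′ end of another gene. Of 3063 starts with enough counts to test, 425 (13.9%) were higher in H3K27ac and 162 (5.29%) in Pol2S2P by edgeR's quasi-likelihood test at a Benjamini-Hochberg adjusted p of 0.05. The median log2 fold change of H3K27ac over Pol2S2P was 0.16, but -0.0067 over 16561 starts with no filter on low counts. A start could pass that filter through 1 target alone, so the filter bears on the direction of the calls. With no filter 300 starts were higher in H3K27ac and 136 in Pol2S2P. Epha2, an ephrin receptor tyrosine kinase (window chr4:141300426-141302425, GRCm38), had 7.96, 11.3 and 10.3 CPM in the H3K27ac libraries and 1.92, 0.949 and 2.103 in the Pol2S2P libraries. All 3 H3K27ac values lay above every Pol2S2P value, with a log2 fold change of 2.52 ± 0.37 (SE; adjusted p = 2.28e-08, edgeR). Ccl8, a chemokine that attracts monocytes (chr11:82114666-82116665), had 14.7, 18.9 and 14.5 CPM against 3.02, 3.48 and 3.31 (2.28 ± 0.29; adjusted p = 1.62e-10, edgeR). Gask1b (2.38), Serpinb9b, a serine protease inhibitor (2.09), Mrgpre, a G protein-coupled receptor (2.06), Lrrk1, a kinase (2.04), Plaur, the urokinase receptor (1.99), and Arid5b, a DNA-binding chromatin cofactor (1.90), followed. Their groups did not overlap either, and the adjusted p stayed below 0.001 in edgeR fits without any 1 library.

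Sequences before 6 of these starts are given to show the range of promoters on either side. They are the 150 bases upstream of the start from RefSeq's GRCm38.p6 annotation, 5′ to 3′ on the gene's strand. Epha2 (chr4:141301071-141301220, plus strand), Ccl8 (chr11:82115035-82115184, plus), Col3a1 (chr1:45311388-45311537, plus) and Vim (chr2:13574161-13574310, plus) had more H3K27ac. Fgf18 (chr11:33147401-33147550, minus) and Ccnb1ip1 (chr14:50795729-50795878, minus) had more Pol2S2P. Capitals mark any match, on either strand, to the letters TGA and TCA with any 1 base between them (AP-1), TATAAA (the core promoter box bound by TBP), CAGCTG (an E-box of the type MyoD binds), CCGGAAG (ETS factors) and CCAAT.
Epha2: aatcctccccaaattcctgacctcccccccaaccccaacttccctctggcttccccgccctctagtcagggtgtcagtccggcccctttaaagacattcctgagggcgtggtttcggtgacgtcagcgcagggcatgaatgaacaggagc
Ccl8: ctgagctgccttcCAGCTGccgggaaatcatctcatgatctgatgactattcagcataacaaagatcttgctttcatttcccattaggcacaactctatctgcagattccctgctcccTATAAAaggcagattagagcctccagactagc
Col3a1: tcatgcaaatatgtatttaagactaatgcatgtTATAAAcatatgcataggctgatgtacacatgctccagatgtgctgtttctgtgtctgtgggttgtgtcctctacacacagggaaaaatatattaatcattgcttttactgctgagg
Vim: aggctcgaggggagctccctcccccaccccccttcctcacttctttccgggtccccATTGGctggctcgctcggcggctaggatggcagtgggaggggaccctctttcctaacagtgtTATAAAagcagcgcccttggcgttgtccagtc
Fgf18: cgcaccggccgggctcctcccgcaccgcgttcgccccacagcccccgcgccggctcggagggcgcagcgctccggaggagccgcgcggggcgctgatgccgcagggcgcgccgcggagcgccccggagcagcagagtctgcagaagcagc
Ccnb1ip1: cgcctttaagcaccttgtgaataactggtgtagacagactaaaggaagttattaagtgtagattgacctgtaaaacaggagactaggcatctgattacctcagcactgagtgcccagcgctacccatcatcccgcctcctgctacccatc
Ccl8 carries both TATAAA and CAGCTG, Col3a1 carries TATAAA, and Vim carries TATAAA and a CCAAT on the opposite strand. Epha2, which had more H3K27ac, matched none of the 5 in these 150 bases, and nor did Fgf18 and Ccnb1ip1. The 6 are examples and do not describe either side.

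Over 250 bases before the start, the promoters with more H3K27ac were poorer in CpG than the other starts tested. The median ratio of observed to expected CpG was 0.651 over 380 promoters higher in H3K27ac, 0.743 over 144 higher in Pol2S2P and 0.785 over all 2843 tested. AP-1 letters were present in 9.47% of promoters higher in H3K27ac, in 6.94% of those higher in Pol2S2P, in 4.75% of those tested and in 6.18% of all 15527 promoters. TATAAA was present in 12.1%, 4.17%, 7.07% and 12.8% of the same sets. CAGCTG was present in 13.7%, 11.1%, 9.53% and 11.6%. The ETS letters ran the other way, with 8.95%, 26.4%, 16.8% and 9.43%, and CCAAT stood at 31.6%, 41.7%, 38.7% and 37.1%. A match is not a bound site, and these shares are descriptions with no test.

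Of 186 starts eligible by the naming rule below, that of Lsmem1, a membrane protein (chr12:40197841-40199840), had the most Pol2S2P relative to H3K27ac. It had 0.637, 0.663 and 3.10 CPM in H3K27ac and 6.58, 7.60 and 8.71 in Pol2S2P, groups that did not overlap (log2 fold change -2.37 ± 0.41 SE; adjusted p = 1.99e-06, edgeR). H3K27ac library 3 stood apart, and without it the fold change was -3.47. The start lies 3.3 kb past the 3′ end of Ifrd1. At Fgf18, a fibroblast growth factor (chr11:33146866-33148865), H3K27ac had 2.55, 2.32 and 3.78 CPM and Pol2S2P 13.4, 14.6 and 14.7 (-2.29 ± 0.31; adjusted p = 1.34e-09, edgeR). Every Pol2S2P value there was over 3 times every H3K27ac value, and Npm1, the gene of a nucleolar chaperone, lies 3.6 kb away. Gp5, a platelet glycoprotein (-2.14), Wdr5b (-1.87), Ccnb1ip1, a meiotic ubiquitin ligase (-1.77), Nolc1, a nucleolar protein (-1.64), Apol8 (-1.62) and Snx14, a sorting nexin (-1.50), followed. Of these 8 starts, 5 lay within 10 kb past the 3′ end of another gene of known strand, among them Apol8 at 2.9 kb past Myh9, the gene of non-muscle myosin. Of the 8 starts led by H3K27ac, 1 did. Over all calls the count was 113 of 162 starts higher in Pol2S2P (69.8%), 72 of 425 higher in H3K27ac (16.9%) and 1006 of 3063 tested (32.8%).

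**Figure D2:**
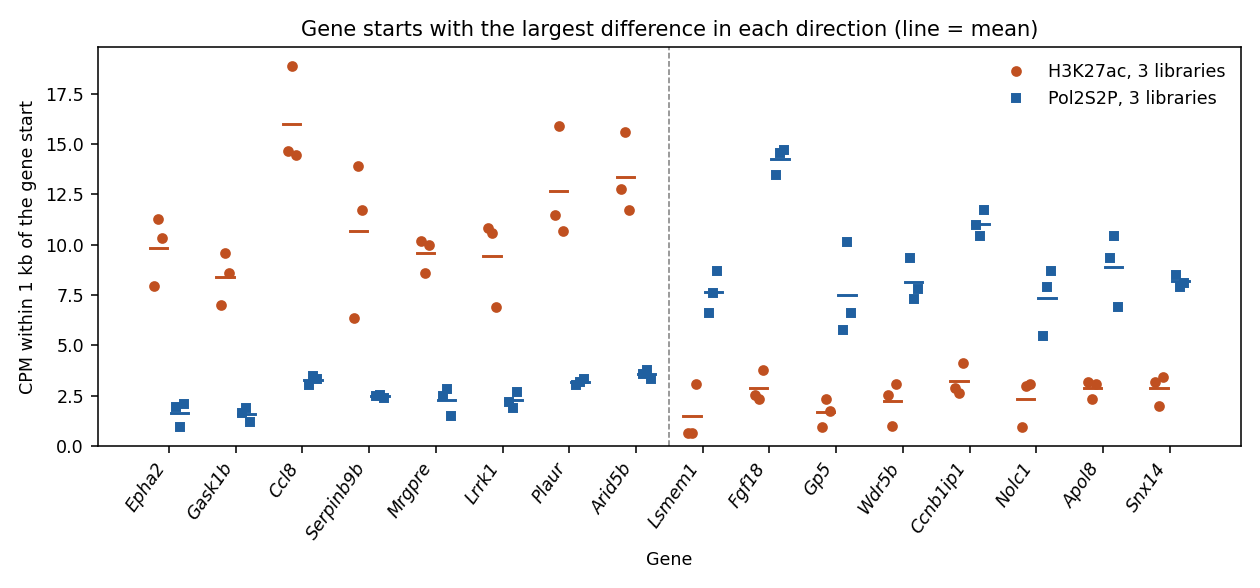
CPM within 1 kb of the start of the 8 genes with the largest difference in each direction by the naming rule. H3K27ac excess lies left of the dashed line and Pol2S2P excess right, with 1 point per library and a line at the mean of 3. At Ccl8 H3K27ac reached 18.9 CPM and Pol2S2P at most 3.48, and at Fgf18 Pol2S2P reached 14.7 and H3K27ac at most 3.78.

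Matrix, actin and immediate early genes had more H3K27ac at their starts. Of 31 genes of the extracellular matrix and adhesion, 21 had a start window and 11 were tested. Of those tested, 9 were higher in H3K27ac and 0 in Pol2S2P, against 13.9% and 5.29% of all starts tested. The median was 1.198 against 0.16. Starts in these lists could pass the filter through H3K27ac alone, so the counts describe the tested members only. Summed over all 21 matrix windows, tested or not, H3K27ac had 124.8 CPM and Pol2S2P 52.9. The collagen gene Col1a2 had 10.51, 11.9 and 8.26 CPM in H3K27ac and 3.29, 1.27 and 3.61 in Pol2S2P (1.88 ± 0.33; adjusted p = 3.67e-06, edgeR), and Col3a1 had 9.24, 16.6 and 15.5 against 3.57, 5.38 and 3.31 (1.75 ± 0.29; adjusted p = 8.48e-07, edgeR). Both sets of values were free of overlap. Postn, which encodes periostin, lay at 1.52 and Sparc, a matrix-binding glycoprotein, at 1.49.

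Genes of the actin cytoskeleton and the serum response had 14 of 21 starts higher in H3K27ac and 0 in Pol2S2P (median 0.87). They included Cnn3, an actin-binding calponin (1.58), Vim, the intermediate filament vimentin (1.54), and Cnn2, another calponin (1.31). Immediate early genes, which respond within minutes to growth signals, had 8 of 11 higher and 0 lower (median 1.04). Fosl2, a subunit of AP-1, had 11.5, 9.94 and 7.91 CPM against 1.65, 4.75 and 2.40 (1.76 ± 0.33; adjusted p = 1.83e-05, edgeR), and Dusp6, a phosphatase of ERK kinases, lay at 1.65. Jun, the AP-1 partner of Fos proteins, lay at 1.22, and Id3, an inhibitor of myogenic factors, at 1.73. Myf5 had 7.64, 6.63 and 6.19 CPM against 3.84, 3.48 and 2.40 (1.06 ± 0.34; adjusted p = 0.0163, edgeR). Its call and that of Junb (1.04) were lost in some fits, with adjusted p up to 0.107 and 0.156 when 1 library was left out.

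The starts of housekeeping classes had few calls. Of 33 ribosomal protein starts tested, 0 were called (median 0.12), and Rpl13, a protein of the large subunit, lay at 0.28. Of 21 splicing factors (median 0.00) and 17 genes of the elongation machinery (median 0.16), 0 were called in either direction. Among 19 translation and chaperone genes (median -0.36), Nop56, a component of small nucleolar ribonucleoproteins, was the 1 called, with more Pol2S2P (-1.05 ± 0.34; adjusted p = 0.0189, edgeR). With libraries paired by number, 1 ribosomal (Rps23), 1 elongation (Polr2l) and 1 further translation and chaperone start (Ubb) were higher in H3K27ac. By TMM 1 ribosomal (Rps2), 2 splicing (Hnrnpa1 and Srsf3), 1 elongation (Polr2f) and 2 translation and chaperone starts were lower. Gapdh, a glycolytic enzyme, lay at -0.48. A start passed the filter on low counts only with enough counts in 3 libraries, so starts low in both targets were not tested, among them those of all 12 neuronal and 11 blood markers with a window. Scaling by TMM moved the median of all starts by -0.18 and the split to 275 higher and 252 lower, and DESeq2 gave 107 and 108. Under these scalings the matrix list kept 8 and 5 starts higher, the actin list 9 and 2 and the immediate early list 5 and 4, with 0 lower in each.

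In gene interiors Pol2S2P led at genes of splicing and translation, and H3K27ac at a smaller set led by Tmem182. Of 13122 interiors tested, 1309 (9.98%) were higher in H3K27ac and 4986 (38.0%) in Pol2S2P, 48.0% in all, with a median of -0.31. Tmem182, a muscle membrane protein (chr1:40807836-40854835), had 191, 221.98 and 208 CPM in H3K27ac and 57.1, 55.1 and 53.8 in Pol2S2P (1.90 ± 0.08 SE; adjusted p = 7.43e-70, edgeR). Every H3K27ac library stood over 3 times above every Pol2S2P library. Foxn1, known as a transcription factor of the thymus, had 129, 121 and 130 CPM against 46.9, 40.2 and 33.95 (1.64 ± 0.10; adjusted p = 1.31e-43, edgeR). The rest of the 8 largest by the naming rule included the serine protease inhibitor genes Serpinb1b (1.87), Serpinb1c (1.64) and Serpina1f (1.59). The others were the vesicle protein Vamp5 (1.62), the elastin cross-linking enzyme Loxl1 (1.58) and the tetraspanin-like Tm4sf4 (1.57).

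Among the interiors with the most Pol2S2P, several were short genes close behind a neighbour. Cryba1, a lens crystallin (chr11:77720686-77723685), had 1.59, 1.66 and 1.38 CPM in H3K27ac and 12.6, 10.1 and 10.2 in Pol2S2P (-2.80 ± 0.37; adjusted p = 7.57e-12, edgeR), and its interior begins 2.7 kb past the 3′ end of Nufip2. Tbr1, a transcription factor of cortical neurons (-2.49), lay 4.4 kb past Psmd14, a proteasome subunit. Fam8a1 (-2.43) lay 4.1 kb past Nup153, a nucleoporin. Samd11 (-2.24) lay 1.8 kb past Noc2l, a histone acetylation inhibitor whose own interior was higher in Pol2S2P (-2.07). In all 5 of the 8 lay within 10 kb past another gene's 3′ end, counting Noc2l and Samd11, a convergent pair, each as past the other, against 1 of the 8 led by H3K27ac. Over all calls the share was 38.0% of the 4986 interiors higher in Pol2S2P, 20.6% of the 1309 higher in H3K27ac and 31.1% of the 13122 tested. Npm1 had 16.6, 12.3 and 14.8 CPM against 56.2, 60.4 and 54.7 (-1.97 ± 0.15; adjusted p = 1.06e-30, edgeR). Ddx3x, an RNA helicase, had 7.33, 8.61 and 5.85 CPM against 28.0, 31.0 and 26.7 (-1.97 ± 0.21; adjusted p = 8.36e-18, edgeR). In both genes the lowest Pol2S2P library exceeded the highest H3K27ac library more than 3 times.

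**Figure D3:**
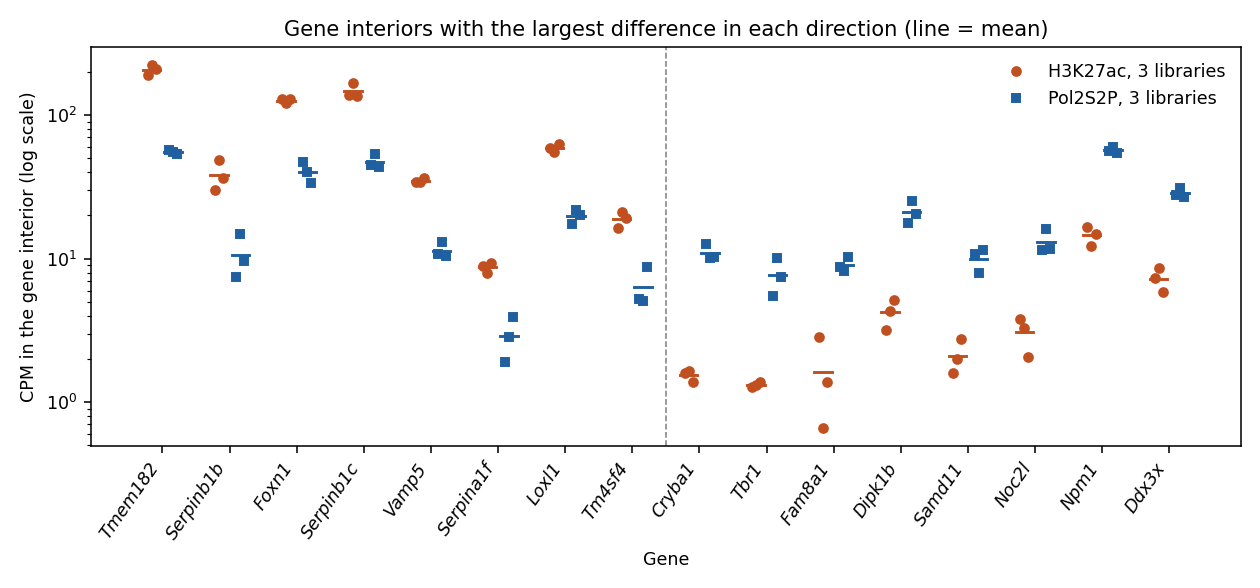
CPM in the interior of the 8 genes with the largest difference in each direction by the naming rule, on a log axis. H3K27ac excess lies left of the dashed line and Pol2S2P excess right, with 1 point per library and a line at the mean of 3. Tmem182 reached 221.98 CPM in H3K27ac, and Cryba1 did not exceed 1.66.

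Gene lists differed in interiors, to be read against 38.0% higher in Pol2S2P and 9.98% in H3K27ac over all interiors tested. Of 30 splicing factors tested, 28 were higher in Pol2S2P and 0 in H3K27ac (median -1.12), among them Sfpq (26.6 ± 4.53 against 92.8 ± 5.74 CPM, SD, n = 3 each; -1.80 ± 0.12 SE) and Hnrnpa2b1 (-1.71). Of 17 translation and chaperone genes, 16 were higher in Pol2S2P and 0 in H3K27ac (median -1.30), led by Npm1 and by Ncl, which encodes nucleolin (-1.91 ± 0.14). The machinery that the Pol2S2P mark belongs to followed, with 23 of 31 genes of elongation and 3′ processing higher in Pol2S2P, 1 higher in H3K27ac and a median of -0.79. Polr2a, which encodes the polymerase subunit that carries the tail, had 21.2 ± 2.61 against 40.6 ± 2.44 CPM (SD, n = 3 each; -0.94 ± 0.15 SE), Supt5, a DSIF subunit, lay at -1.25 and Cdk12 at -1.12. Genes that place, read or remove acetylation had 12 of 19 higher in Pol2S2P and 2 in H3K27ac (median -0.60), but 8 and 3 by TMM and 7 and 3 by DESeq2. Ep300, which encodes p300, lay at -0.80 and Crebbp, which encodes CBP, at -0.90, while the deacetylase genes Hdac5 and Hdac7 lay at 0.40 and 0.41 and were the 2 higher in H3K27ac. Cell cycle genes had 13 of 23 higher in Pol2S2P and 1 in H3K27ac (median -0.65), but 8 and 2 by TMM and 7 and 2 by DESeq2. Cdk1, the mitotic kinase, lay at -1.38, Ccna2, a cyclin, at -1.32 and Cdkn1a, a kinase inhibitor and the 1 gene higher in H3K27ac, at 0.56.

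Other groups were mixed or leaned to H3K27ac. Of 29 matrix genes, 8 were higher in H3K27ac and 6 in Pol2S2P (median 0.11), a balance that moved to 18 and 5 by TMM and 16 and 4 by DESeq2. Loxl2, a collagen cross-linking enzyme, lay at 1.35 and Col1a1 at 0.95, with 13.7, 12.9 and 16.9 CPM against 8.23, 7.28 and 6.91. Fn1, the fibronectin gene, had 74.9, 82.2 and 76.0 CPM against 128, 124 and 145 (-0.77 ± 0.08). Of 10 Hox genes, 4 were higher in H3K27ac, namely Hoxc9 (1.33), Hoxc6 (1.28), Hoxc10 and Hoxa10 (both 1.11), and 0 in Pol2S2P. The median of the 10 was -0.09, and only these 4 lay above 0. Chemokine and cytokine genes had 6 of 13 higher in H3K27ac and 1 in Pol2S2P (median 0.33), with Inhba, an activin subunit, at 1.24 and Cxcl12 at 1.12. Myogenic regulators had 3 of 15 higher in H3K27ac (Eya1, Eya4 and Megf10, from 0.45 to 0.47) and 5 in Pol2S2P (median 0.03), but 7 and 0 by TMM and 6 and 0 by DESeq2. Mef2a lay at -0.27, but at 0.029 by TMM. Among contractile genes the cardiac troponin gene Tnnt2 lay at 1.30 and Ttn, which encodes titin, at -0.50.

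The longest genes leaned to H3K27ac. The median went from -0.43 over 695 genes of 5 to 10 kb through -0.32 over 2473 genes of 50 to 100 kb to 0.06 over 226 genes of 500 kb or more, and the share higher in H3K27ac went from 8.20% through 9.99% to 31.9%. The share higher in Pol2S2P was 27.3%, 46.9% and 12.8% over the same classes. Of 18 neuronal and glial markers (median 0.06), 6 were higher in H3K27ac and 1 in Pol2S2P, against 9.98% and 38.0% of all interiors. By both TMM and DESeq2 the counts were 12 and 0. The 6 were led by Mbp, a myelin protein (1.12), and Slc17a6, a glutamate transporter (0.95). These markers were not compared with genes of like length. Of the 12 starts of this list with a window, 0 had enough counts to test. TMM moved the median of all interiors by 0.30, giving 2666 higher in H3K27ac and 2537 in Pol2S2P, and DESeq2 gave 2153 and 1698. Splicing factors then had 25 and 22 of 30 higher in Pol2S2P with 0 in H3K27ac, translation and chaperone genes 14 and 13 of 17 with 0, and elongation genes 18 and 15 of 31 with 1.

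**Figure D4:**
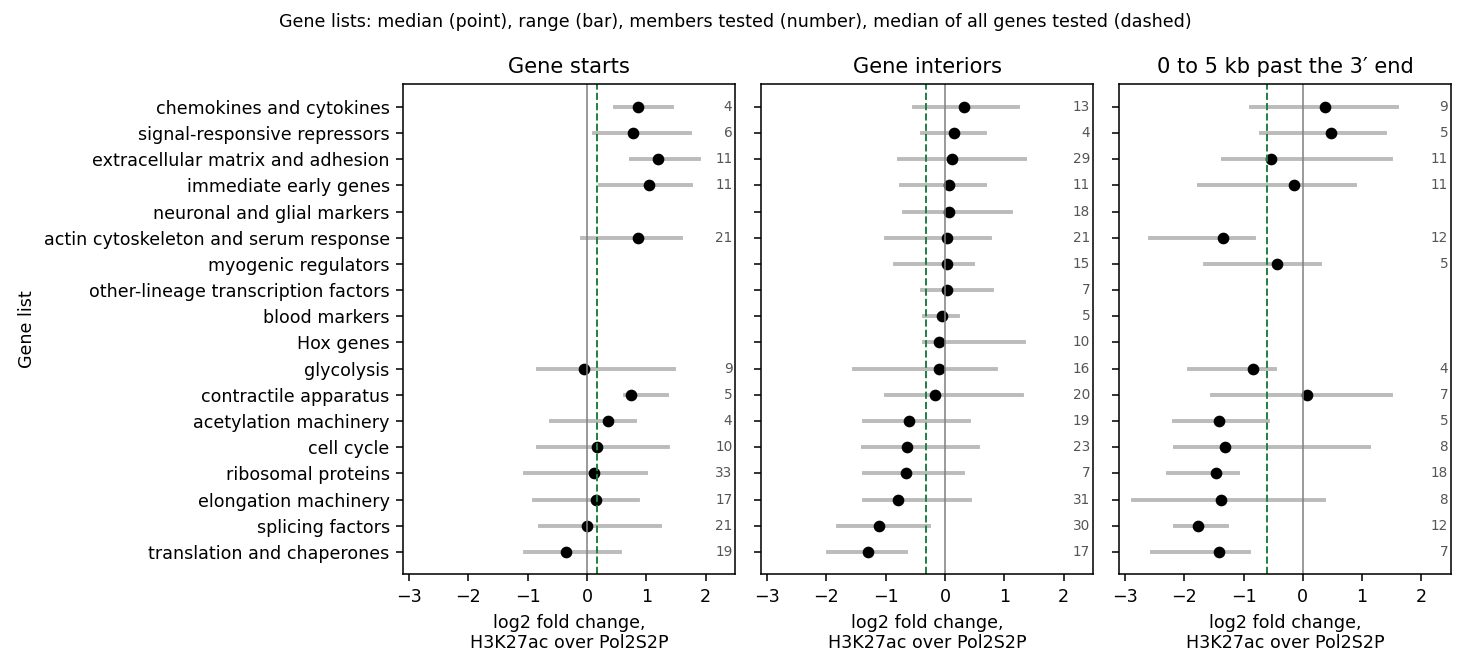
Log2 fold change of H3K27ac over Pol2S2P for gene lists with at least 4 members tested, at starts, in interiors and from 0 to 5 kb past the 3′ end. Points are list medians, bars the range over members, and the dashed line the median of all genes tested (0.16, -0.31 and -0.60). Splicing factors lay at 0.00, -1.12 and -1.77 in the 3 panels.

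The ratio of the targets changed between the start and the interior of the same gene. Of 2360 genes tested in both places, 1971 (83.5%) had a higher ratio of H3K27ac to Pol2S2P at the start, with medians of 0.20 at the start and -0.50 in the interior. In 77 genes the start was higher in H3K27ac and the interior in Pol2S2P, and in 2 genes the reverse held. The test of the difference within a gene, with each library as a block, called 391 of 10713 genes with a higher ratio at the start (3.65%) and 20 with a lower one (0.187%) by edgeR. Vim had the smallest p, with 70, 78 and 82 counts of H3K27ac and 27, 30 and 31 of Pol2S2P at the start, against 76, 94 and 84 and 165, 195 and 169 in the interior. Its start had the more H3K27ac and its interior the more Pol2S2P in every library, a difference of 2.44 ± 0.31 on the log2 scale (adjusted p = 8.24e-11, edgeR). Epha2 (2.60 ± 0.44), with the largest difference among the named genes, was called for H3K27ac at the start, while its interior lay at -0.08. Aebp2, a Polycomb cofactor (2.29), Cdk6, a cyclin D-dependent kinase (2.23), Ect2, a cytokinesis factor (2.23), and Sqstm1, an autophagy receptor (2.22), followed. Splicing factors had 7 of 30 called with the higher ratio at the start and 0 with the lower, and matrix genes 5 of 19 and 0, but DESeq2 called 0 in both lists. In the other direction Tns2, a focal adhesion protein (-1.46), Apol8 (-1.38), Ahnak (-1.19) and Lmln (-0.99) had more Pol2S2P at the start than inside. Calls for Tns2, Apol8 and Lmln were lost without 1 library or another (adjusted p up to 0.0963, 0.203 and 0.238, edgeR). Leaving out any 1 of the 6 libraries left 201 to 254 calls in all, and DESeq2 called 20.

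Past the 3′ end Pol2S2P was again the target more often higher with counts scaled by library total, but not by TMM or DESeq2. Of 3242 windows from 0 to 5 kb past the end, tested where no other protein-coding gene lay in the window, 1239 (38.2%) were higher in Pol2S2P and 259 (7.99%) in H3K27ac, 46.2% in all, with a median of -0.60. With no filter on low counts the median was -0.35 over 10752 windows, against -0.31 in interiors, and whether the 2 places differ was not tested. Snx5, a sorting nexin of endosomes (window chr2:144245416-144250415), had 3.19, 3.64 and 3.78 CPM in H3K27ac and 32.4, 25.6 and 26.1 in Pol2S2P (-2.98 ± 0.24 SE; adjusted p = 8.88e-18, edgeR). All Pol2S2P values were over 6 times the H3K27ac values. Zfp414 (-2.88), the kinetochore protein Zwint (-2.69) and Flna, which encodes the actin cross-linker filamin A (-2.57), followed. At Flna the H3K27ac values were uneven, at 0.319, 5.30 and 2.06 CPM, against 15.1, 16.8 and 14.1 in Pol2S2P. Windows with more H3K27ac lay past D7Ertd443e (2.1016), the chemokine gene Ccl1 (2.05), the somatostatin receptor gene Sstr4 (1.98) and the hydrolase gene Fhit (1.96).

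Several lists were uniform here, among them the ribosomal, splicing and translation lists with few calls at starts and the actin list that had favoured H3K27ac there. All 18 ribosomal protein windows tested were higher in Pol2S2P (median -1.47), as were all 12 of splicing factors (-1.77), all 12 of the actin and serum response list (-1.35) and all 7 of translation and chaperones (-1.41). Rps7, a protein of the small subunit, had 3.97 ± 0.291 against 19.4 ± 2.33 CPM past its end (SD, n = 3 each; -2.28 ± 0.26), while its start lay at 0.51 and was not called. Actg1, which encodes gamma-actin, had 8.92, 8.28 and 5.85 CPM against 29.6, 38.9 and 32.4 past the end (-2.12 ± 0.20; adjusted p = 7.66e-15, edgeR) and a start at 0.69 that was not called (adjusted p = 0.112, edgeR). Fosl2 turned from 1.76 at the start to -1.76 past the end, and Col1a2 from 1.88 to -1.23, whereas Col3a1 lay at -0.13 past its end. Immediate early genes had 1 of 11 windows higher in H3K27ac and 2 in Pol2S2P (median -0.14), or 2 and 2 with libraries paired by number. TMM moved the median of all windows by 0.59, giving 565 higher in H3K27ac and 432 in Pol2S2P, and DESeq2 gave 388 and 172. Under these scalings ribosomal proteins kept 16 and 11 of 18 windows higher in Pol2S2P, splicing factors 10 and 7 of 12 and the actin list 7 and 3 of 12, with 0 higher in H3K27ac in each.

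Single genes showed how the targets were laid out. Along Vim, H3K27ac was 14.4 ± 1.39 CPM in the bin centred 0.87 kb before the start and fell to 3.07 ± 0.711 at 8.13 kb, near the 3′ end (SD, n = 3). Pol2S2P went from 4.58 ± 0.772 to 11.3 ± 1.13 over the same bins and peaked at 19.9 ± 3.06 at 9.13 kb, past the end. Along Actg1, Pol2S2P stayed at 1.99 to 2.81 CPM inside the gene and reached 15.2 ± 2.21 at 3.48 kb, just past its end. H3K27ac was also low inside Actg1, at 1.09 to 1.78 CPM, and stood at 4.04 ± 1.66 at 3.48 kb. Whether reads can be placed equally well in these bins was not tested. Hmga2, an architectural chromatin protein of proliferating progenitors, had 216 ± 5.60 against 453 ± 7.34 CPM over its interior (-1.07 ± 0.05). Past its end it had 7.83 ± 0.965 against 38.7 ± 3.56 CPM (-2.30 ± 0.19), and its start favoured H3K27ac (1.00 ± 0.28). In Tmem182 H3K27ac was the higher target at the start (2.22 ± 0.48), in the interior (1.90 ± 0.08) and past the end (1.27 ± 0.22).

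**Figure D5:**
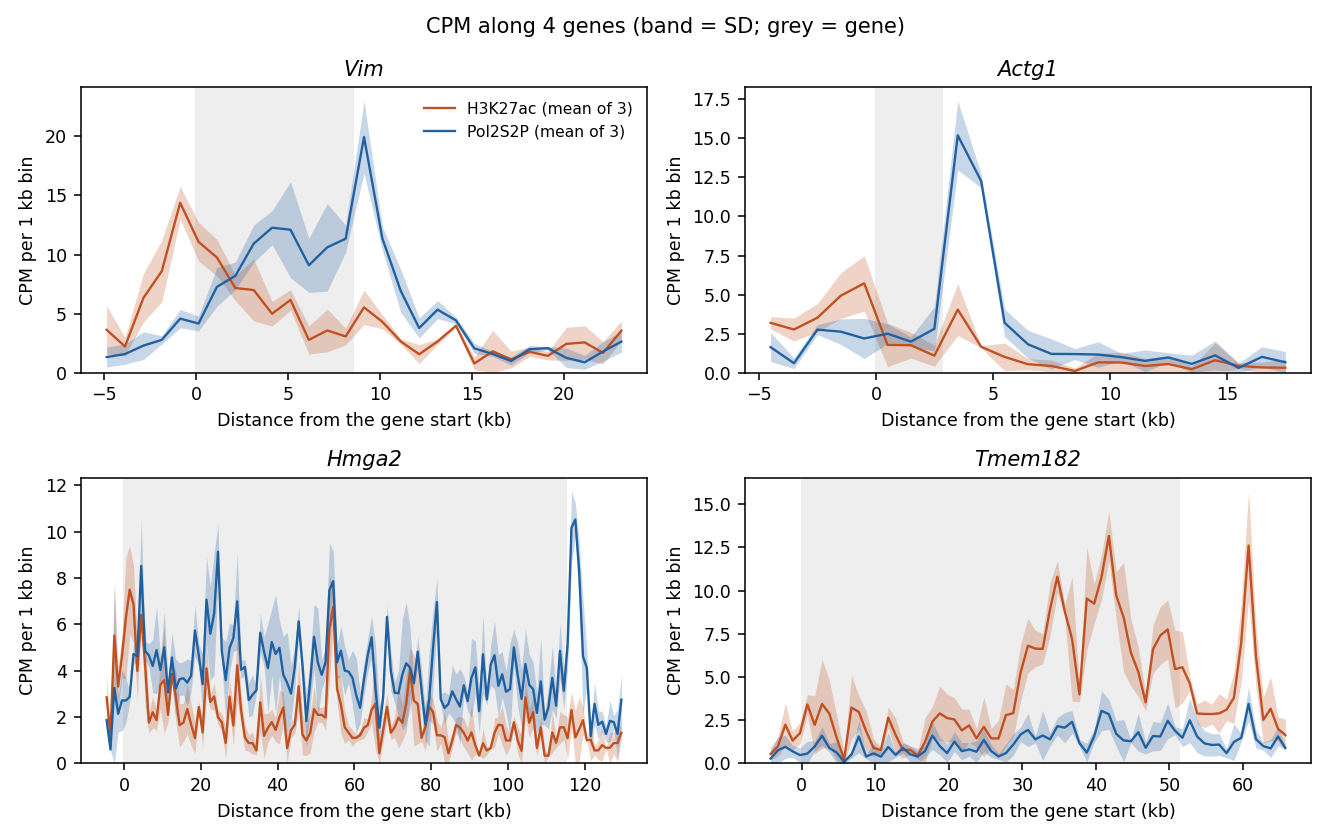
CPM per 1 kb bin against the distance in kb from the gene start for 4 genes, with the gene span in grey; lines are means of 3 libraries and bands are SD. Pol2S2P peaked just past the 3′ end of Vim (19.9 CPM) and Actg1 (15.2 CPM), and H3K27ac was the higher target over Tmem182.

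Away from genes the bins called were mostly higher in H3K27ac. Of 6845 distal 1 kb bins that passed the filter on low counts, 5071 (74.1%) were higher in H3K27ac and 357 (5.22%) in Pol2S2P, 79.3% in all, with a median of 1.38. Over all 18663 bins that passed, in genes or out, 55.9% were higher in H3K27ac and 9.59% in Pol2S2P, 65.5% in all. A bin could pass through 1 target alone, so the filter bears on the direction and these counts do not describe all distal bins. Over 225932 bins with at least 10 counts in the 6 libraries together, 4953 were higher in H3K27ac and 552 in Pol2S2P, with a median of 0.19. TMM moved the median by -0.92, giving 1304 and 665, and DESeq2 gave 503 and 540. The named bin with the most H3K27ac counts lay at chr1:145956406-145957405, 538.2 kb from the nearest gene, Brinp3. It had 38, 30 and 41 counts against 2, 4 and 2 (3.86 ± 0.38 SE; adjusted p = 5.78e-07, edgeR). A bin at chr6:88959641-88960640 had 21, 27 and 17 counts against 1, 1 and 2 (4.05 ± 0.50; adjusted p = 2.45e-06, edgeR), again with no overlap. Bins on chromosomes 4 and 3 (chr4:64632741-64633740 and chr3:107831561-107832560) each had 40 counts against 2, a ratio of 22.4 with a 95% counting interval of 5.80 to 191.

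Distal bins higher in Pol2S2P lay past gene ends more often than the bins tested did. Within 10 kb past a 3′ end lay 167 of the 349 bins higher in Pol2S2P whose position could be set against genes of known strand (47.9%), against 326 of 4950 higher in H3K27ac (6.59%) and 744 of 6682 tested (11.1%), while 20.9% of those higher in Pol2S2P lay over 50 kb from both gene ends and starts. Named bins of this kind lay 1.6 kb past Cd44, the hyaluronan receptor gene (3 against 46 counts), 1.7 kb past Snx5 (6 against 77), 1.8 kb past Hmga2 (10 against 107) and 3.4 kb past Naa50, an acetyltransferase of protein N-termini (4 against 43). The bin past Cd44 had a Pol2S2P to H3K27ac ratio of 13.7, with a 95% counting interval of 4.41 to 68.9.

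The other 2 named bins lay past microRNA clusters, away from protein-coding gene ends. The bin at chr14:115049536-115050535 lies 5.0 kb downstream of the miR-17-92 cluster and had 0, 3 and 0 H3K27ac counts and 21, 14 and 16 Pol2S2P counts, a ratio of 15.2 (95% counting interval 4.92 to 76.2). The bin at chrX:19142926-19143925 lies 2.4 kb downstream of miR-221 and miR-222 and had 1, 1 and 2 counts against 20, 13 and 14 (-3.28 ± 0.52; adjusted p = 2.20e-05, edgeR). No Pol2S2P library fell to the level of an H3K27ac library in either bin. No microRNA was measured here. Mature microRNAs encoded by the 2 clusters are printed below, though not all of the 11 and 3 annotated. They are from RefSeq (GRCm38.p6), 5′ to 3′, with the seed (bases 2 to 8), which pairs with target messages, in capitals.
miR-17-5p: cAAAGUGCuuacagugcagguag
miR-20a-5p: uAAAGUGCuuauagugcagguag
miR-18a-5p: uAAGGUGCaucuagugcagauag
miR-19a-3p: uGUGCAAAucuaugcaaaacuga
miR-19b-3p: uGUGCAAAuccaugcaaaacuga
miR-92a-3p: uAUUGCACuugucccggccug
miR-221-3p: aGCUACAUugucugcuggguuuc
miR-222-3p: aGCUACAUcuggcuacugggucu
The seed AAAGUGC is shared by miR-17-5p and miR-20a-5p, GUGCAAA by miR-19a-3p and miR-19b-3p, and GCUACAU by miR-221-3p and miR-222-3p. The miR-17-92 cluster is known as a driver of proliferation, and miR-221 and miR-222 are known to repress the cell cycle inhibitor p27. Over 10 kb past the host transcript Mir17hg, H3K27ac stood at 7.505 ± 0.682 CPM and Pol2S2P at 41.9 ± 6.39, against 9.36 ± 0.671 and 14.8 ± 3.77 over the 10 kb before it (SD, n = 3 each). The window before it includes the bin that holds the cluster, with 10 H3K27ac and 34 Pol2S2P counts. Most of the cluster lies before the annotated start of Mir17hg. Over the 10 kb downstream of miR-221 the values were 5.76 ± 1.66 and 22.6 ± 2.12, against 16.8 ± 3.84 and 18.2 ± 1.08 on the other side (SD, n = 3 each). The window on the other side includes miR-222. These windows were not tested as wholes.

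The differences recurred in libraries of 100 cells, which share no sample with those of 1000. Of 10095 interiors tested at both, 85.5% had the same sign, with r = 0.835 across genes, and of 324 starts 84.3%, with r = 0.822 (across genes, which are not replicates). A test of whether the difference changed with the number of cells called 0 of 2697 starts and 0 of 12886 interiors by edgeR, with 142 and 645 at an unadjusted p under 0.05, and DESeq2 called 0 and 0. Leaving out library 2 or 3 of H3K27ac at 100 cells gave 1 start. A p that misses the threshold does not show that the differences are alike. At 100 cells Tmem182 lay at 2.06, Foxn1 at 1.84 and Npm1 at -2.07 in interiors, and Fgf18 at -2.25, Plaur at 2.22 and Arid5b at 2.32 at starts. Some calls were not met there: the interior of Tm4sf4 lay at 0.73 (adjusted p = 0.117, edgeR), of Col1a1 at 0.65 (adjusted p = 0.180, edgeR), of Mef2a at -0.094 and of Fosl2 at -0.037. Splicing factors had 22 of 29 interiors higher in Pol2S2P and 0 in H3K27ac (median -1.27), against 28.6% and 8.99% of all interiors tested at 100 cells, and translation and chaperone genes 13 of 14 and 0 (median -1.50). At starts 4 of 4 matrix genes tested were higher in H3K27ac, against 25.6% higher in H3K27ac and 6.79% in Pol2S2P over all starts tested there. These 4 are the part of 21 matrix starts that passed the filter, which a start could pass through H3K27ac alone. The count therefore describes those 4 only.

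Pol2S2P stained alone in 1000 cells stood on the Pol2S2P side at the genes with the largest differences, but not at all others. In both of its libraries the CPM lay below all 3 H3K27ac libraries at the 8 starts, 8 interiors and 4 downstream windows led by H3K27ac, and above all 3 at the 8 starts, 8 interiors and 4 windows led by Pol2S2P. At Fgf18 it had 32.6 and 46.3 CPM, at the Npm1 interior 82.2 and 82.8, past Snx5 51.9 and 55.4, and in the Tmem182 interior 53.5 and 46.8. Of the 7 genes fixed by name whose starts were called for H3K27ac, it lay below all H3K27ac libraries in 2, Col1a2 and Col3a1. At Jun it had 10.8 and 16.8 CPM, against 9.56 to 11.7 in H3K27ac, and at Fosl2 10.48 and 8.20 against 7.91 to 11.5. The leading genes were chosen for their difference between the dual-stained targets, so the counts describe them and no others.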

How the data were processed

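The authors deposited 1 table of raw counts in 1 kb genome bins. Per the submitters' processing notes, bcl2fastq, HISAT2 2.1.0, deepTools 3.3.1 and GRCm38 were used. No source used here gives the handling of duplicates, multiply mapped reads or antibody barcodes. A further 4 columns matched no sample and were not used. Of 2728634 bins, 2631639 on the autosomes and X were kept, less 9 on chromosomes 2, 9 and 14 that exceeded 50 times the mean in each group used. The remaining total was the library size, with no further scaling. Gene coordinates came from a RefSeq table of GRCm38.p6 with 21627 protein-coding genes, of which 17273 had a strand through RefSeq's promoter table, and genes without one had no start or downstream window.

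Summed counts were tested with edgeR 4.0.16 in R 4.3.3 (glmQLFit, glmQLFTest, filterByExpr) and adjusted by Benjamini-Hochberg over all features tested, at 0.05. DESeq2 1.42.0, TMM, other windows and filters and fits without each library were alternatives. The scripts were tested on simulated data. Libraries of the same number from the H3K27ac and Pol2S2P sides deviated together (correlations 0.109, 0.112 and 0.106, against -0.0473 to -0.0601 for other pairings), so the numbers pair the samples. Deviations were taken from the mean of each group of 3, so the negative values follow from the positive ones and are no separate evidence. The main fits of the 2 targets did not use this pairing. Named genes are the largest calls in each direction whose groups did not overlap. Up to 8 (starts, interiors), 6 (start against interior, distal bins) or 4 (downstream) were taken. They were free of shared bins and had at least 20 counts (10 in bins) per library on the higher side. For start against interior the 20 counts applied to the start, and the interior had at least 60 summed per target. Fixed genes and the 2 to 4 largest calls per list were added. Members that make up a count of 5 or fewer, and Hmga2, were named after their values were seen. The comparison, its members and the 19 lists (500 entries) were chosen with earlier results of these data known. Intervals cover counting error only.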

Additional observations from a re-analysis of the deposited data

How the results depend on the processing

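Counts of calls depended on the tool, the scaling and the windows, and the cause was not tested. At gene starts DESeq2 called 215 and windows of 2.5 kb 1422, against 587. In interiors DESeq2 called 3851 against 6295. Past gene ends TMM called 997, DESeq2 560 and a window of 0 to 2 kb 546, against 1498. In distal bins TMM called 1969 and DESeq2 1043, against 5428. For the difference between start and interior the count was 855 with wider windows, 709 with no library block, 20 by DESeq2 and 201 to 254 without any 1 library, against 411. The difference between 1000 and 100 cells at starts gave 0 to 1 calls without any 1 library. In the fits with the replicate block, which pairs libraries of the same number, 678 starts, 6614 interiors, 1579 downstream windows and 5559 distal bins were called, and the block changed none of these counts by over 1.5 times and no call of a gene named by rule. The block moved some of the list counts reported by 1 gene each. At starts these were the ribosomal, elongation and translation lists, and past the end the immediate early list. In interiors they were the myogenic (Tcf4), cell cycle (Plk1), neuronal and glial (Dlg2) and chemokine and cytokine (Lif) lists. For the shares of counts the paired sign-flip test gave an exact p of 0.25, the smallest 3 pairs can give. Mef2a in its interior turned to 0.029 by TMM and 0.038 by DESeq2. Among the alternative values for the named genes, 967 kept their direction and side of the threshold, 44 lost their call, 5 gained one and 2 reversed. Taking the start listed by RefSeq in place of the gene's 5′ end, an alternative chosen after seeing the data, gave 619 calls at starts. Few counts limit some named features, with as few as 2 in 1 target in distal bins.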

Other observations

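Genes of nuclear long noncoding RNAs held more Pol2S2P than H3K27ac counts per library total. Over the span of Neat1, the RNA that builds nuclear paraspeckles, H3K27ac stood at 88.7 ± 3.52 CPM and Pol2S2P at 254 ± 14.4 (SD, n = 3 each), which is 10.6 and 30.4 times the genome mean per bin. Over Malat1, a neighbouring RNA of nuclear speckles, the values were 35.6 ± 1.90 and 66.8 ± 5.52 CPM (SD, n = 3 each), or 11.7 and 22.0 times the mean. The excess was uneven along Malat1. Bins at its right end lay at -0.26, -0.069 and 0.16 on the log2 scale and were not called. In the 10 kb to the right of Malat1 on the chromosome the order was the reverse, with 55.3 ± 7.06 CPM of H3K27ac and 25.9 ± 0.846 of Pol2S2P (SD, n = 3 each). The libraries of each target lay apart from those of the other in each of these windows. The windows beside Malat1 were chosen after their values were seen, and none of the windows was tested as a whole.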
